A study of Mus musculus with 24 samples.

Results

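Arc, Homer1, Npas4, Nr4a1, Nr4a3, Fos, Fosb, Jun, Junb and Egr1 are immediate early genes, whose transcripts accumulate in neurons after synaptic activity. These 10 genes were taken by name out of the 50686 genes counted, and all 10 passed the filter on low counts, which kept 21657 genes for testing. They were chosen with earlier results of these data known. The levels came from stranded mRNA sequencing of a block of tissue labelled "Back left brain" from C57BL/6 mice. The mice were Pank1-/-Syn-Pank2-/- double knockouts (dKO) or wild type (WT), of both sexes, at day 20 or day 10. Pank1 and Pank2 encode pantothenate kinases, which start coenzyme A synthesis, and the series compares knockout with control at each day and in each sex. The sources used here do not spell out Syn or the deleted exons. They also do not state that libraries were from different animals, and the p-values speak only of the spread between libraries.

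Immediate early genes are switched on by signalling that reaches the nucleus within minutes of a stimulus and needs no new protein. In neurons, calcium entering through glutamate receptors and voltage-gated channels activates kinases that act on CREB and SRF, transcription factors already bound near these genes. Most of the products are themselves transcription factors, which control a later set of activity-response genes, while Arc and Homer1 act at the synapse.

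Each combination of genotype, sex and day had 3 libraries, 24 in all. Gene counts were 15.9 to 27.3 M (M, mega) in 6 dKO and 18.7 to 42.5 M in 6 WT libraries at day 20, and 10.8 to 20.0 M in 5 dKO and 9.19 to 44.7 M in 6 WT libraries at day 10, and a single count was worth 0.0224 to 0.109 CPM (counts per M gene counts). Replicate 3 of the dKO males of day 10 had 45964 gene counts and was left out, which leaves n = 5 for dKO at day 10. Pank1 was at 6.71 to 8.12 CPM in dKO against 19.5 to 26.7 CPM in WT at day 20, and at 7.17 to 8.87 CPM against 20.99 to 24.7 CPM at day 10. Pank2 was at 38.5 to 46.3 CPM in dKO against 52.6 to 61.3 CPM in WT at day 20, and the groups overlapped at day 10. These counts cover whole genes and do not test the deleted part. The tissue label was set against marker genes. Emx1, a transcription factor gene of the dorsal telencephalon, had 1 count in the 6 dKO libraries of day 20, against 5 counts in the 6 WT libraries. The cerebellar granule and Purkinje cell markers summed to 2268 to 2613 CPM in dKO against 1975 to 2820 CPM in WT at day 20, and the Hox genes of hindbrain position to 25.2 to 35.2 CPM against 22.6 to 36.9 CPM. At day 10 the same sums spread more widely. Hox genes summed to 0.0558 to 97.6 CPM in dKO against 2.005 to 53.5 CPM in WT, and cerebellar markers to 508.7 to 2175 CPM against 1432 to 3285 CPM. In these sums 3 libraries stood apart at day 10. They were dKO male replicate 2 (lowest in both), dKO female replicate 2 (highest in Hox genes) and WT male replicate 1 (highest in cerebellar markers). Results of the 10 genes at day 10, between the days and for the difference between the days are also given without them. Leaving them out keeps 1 dKO male library of day 10, so a call lost there can also reflect fewer libraries.

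The start regions of the genes were searched for short sequence elements. RefSeq promoter windows on GRCm38.p6 were taken for 8 of the 10 genes, with a pair of windows for Homer1. No window of Arc or Egr1 entered the search, so the counts below, including those of 0, do not cover Arc and Egr1. The 250 bases before each start were searched on both strands for 5 elements. The short cAMP response element (CRE) TGACG, to which CREB family factors bind, was in 7 of 9 windows, those of Fos, Fosb, Homer1, Junb, Npas4, Nr4a1 and Nr4a3, against 17.8% of all 32851 windows. The full palindromic element TGACGTCA, which contains the short one, was in 0 of 9 windows against 1.55% of all. The EGR site GCGNGGGCG was in the windows of Fosb and Nr4a1 against 4.70% of all. The CArG box, which SRF binds, and the AP-1 site TGANTCA were in 0 of 9 windows, against 1.47% and 6.75% of all. For Npas4 and Nr4a3 all 150 bases before the RefSeq start lie in exons of the same gene in GENCODE M21, and these stretches are not printed. A match is a description of the letters, and its absence says only that the letters are not in the window. The shares of all windows were not matched for G and C content, so they give no test of enrichment. The stretches printed below hold 58.0% (Jun) to 75.3% (Nr4a1) G and C. The 150 bases before the start are printed for 6 genes, 5 with a match and Jun without one, on the strand of the gene, with matches to the short CRE and to the EGR site, on either strand, in capitals. They are Fos (chr12:85473740-85473889, plus strand), Fosb (chr7:19310046-19310195, minus), Junb (chr8:84978749-84978898, minus), Nr4a1 (chr15:101266696-101266845, plus), Homer1 (chr13:93303607-93303756, plus) and Jun (chr4:95052223-95052372, minus).
Fos: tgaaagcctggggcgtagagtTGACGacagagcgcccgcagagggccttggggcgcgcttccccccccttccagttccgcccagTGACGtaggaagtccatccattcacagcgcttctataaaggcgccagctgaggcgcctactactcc
Fosb: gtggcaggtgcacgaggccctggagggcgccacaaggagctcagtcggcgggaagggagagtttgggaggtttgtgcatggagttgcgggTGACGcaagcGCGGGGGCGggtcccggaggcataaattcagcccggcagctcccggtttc
Junb: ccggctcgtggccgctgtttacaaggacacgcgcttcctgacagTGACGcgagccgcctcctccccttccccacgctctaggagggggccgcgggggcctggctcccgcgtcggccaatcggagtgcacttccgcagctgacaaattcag
Nr4a1: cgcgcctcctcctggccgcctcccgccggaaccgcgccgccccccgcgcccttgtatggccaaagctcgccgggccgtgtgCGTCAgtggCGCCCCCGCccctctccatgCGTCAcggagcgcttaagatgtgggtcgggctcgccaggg
Homer1: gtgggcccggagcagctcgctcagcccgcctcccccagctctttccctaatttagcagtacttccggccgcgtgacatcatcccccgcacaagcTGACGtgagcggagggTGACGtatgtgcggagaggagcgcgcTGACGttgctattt
Jun: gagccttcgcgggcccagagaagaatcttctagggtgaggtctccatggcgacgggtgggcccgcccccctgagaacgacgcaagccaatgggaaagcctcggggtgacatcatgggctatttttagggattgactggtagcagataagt
The Homer1 stretch held the element 3 times, at 56, 40 and 14 bases before the start, and the Fos stretch held it at 129 and 66 bases. Nr4a1 had the element 4 times in its 250 bases, with the EGR site between the pair nearest the start, at 69 and 40 bases. Fosb had 1 of each, with the EGR site closer to the start.

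Levels of different genes were compared per kb of exon (CPM per kb, GENCODE M21). The length joins the exons of all annotated forms, 11.976 kb for Homer1 and 3.189 kb for Jun, and the order depends on it. In CPM without length Homer1 was above Jun, with means of 78.1 and 32.5 in dKO at day 20. In dKO at day 20 Jun was the most abundant of the 10 at 10.2 ± 0.673 CPM per kb (SD, n = 6), followed by Fos (7.46 ± 2.02), Homer1 (6.52 ± 0.406), Egr1 (5.52 ± 0.453), Nr4a1 (4.01 ± 1.28), Junb (3.91 ± 0.559), Arc (3.12 ± 0.949), Nr4a3 (1.34 ± 0.299), Npas4 (0.456 ± 0.112) and Fosb (0.139 ± 0.0314). In WT at day 20 the order of these levels per kb was Jun (13.9 ± 0.747), Fos (12.3 ± 1.44), Homer1 (8.94 ± 0.459), Arc (7.65 ± 0.753), Nr4a1 (5.54 ± 0.819), Nr4a3 (5.34 ± 0.690), Egr1 (4.40 ± 0.323), Junb (2.83 ± 0.272), Npas4 (1.20 ± 0.164) and Fosb (0.266 ± 0.0652). Arc thus stood below Egr1, Nr4a1 and Junb in dKO and above them in WT. Neighbours closer than the sum of their SDs were Fos and Homer1, Egr1 and Nr4a1, Nr4a1 and Junb, and Junb and Arc in dKO, and Jun and Fos, Nr4a1 and Nr4a3, and Nr4a3 and Egr1 in WT. At day 10 the order was Jun, Homer1, Arc, Fos and Nr4a1 in both genotypes, with Nr4a3, Npas4 and Fosb last.

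**Figure D1:**
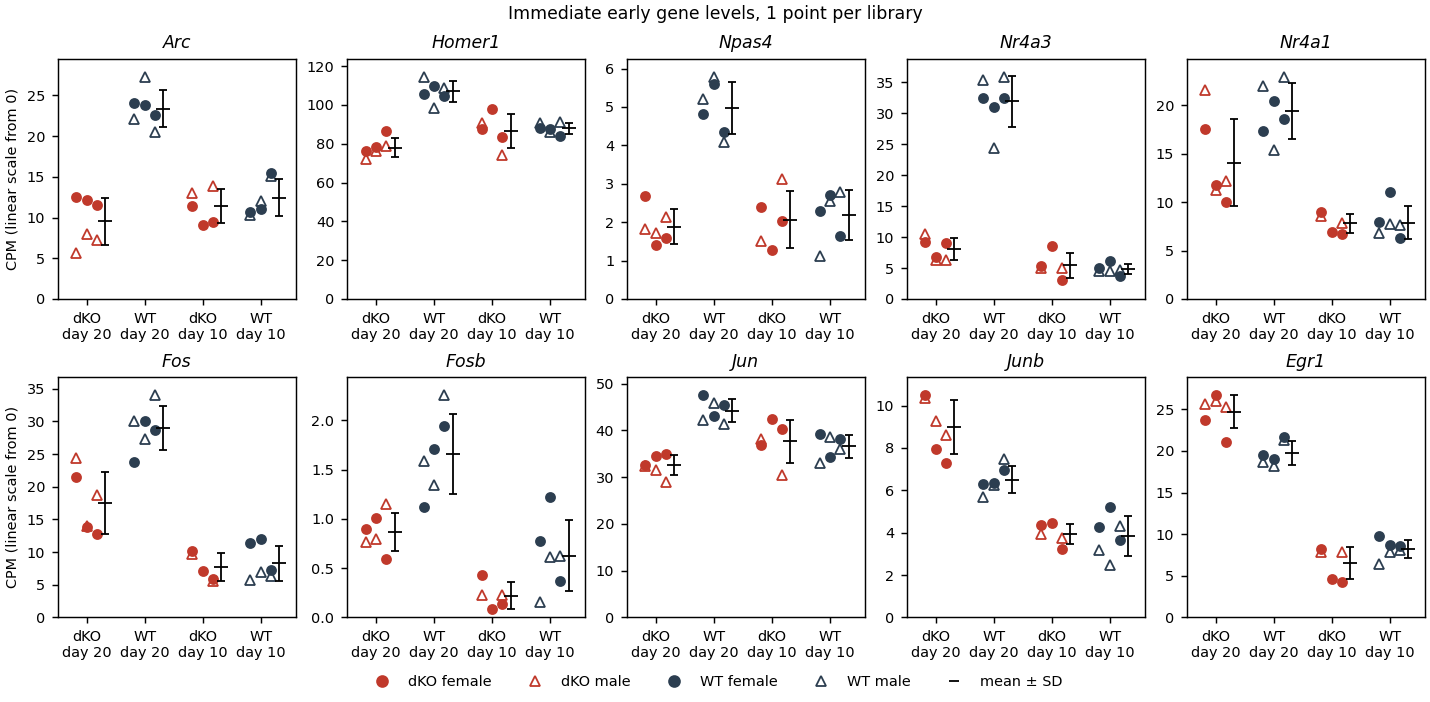
Level of each gene in CPM (vertical axis, linear from 0) in the 23 libraries, 1 point per library, for dKO and WT at day 20 and day 10; circles are females, triangles males, and the black marks are mean ± SD. At day 20 the dKO points of Arc, Homer1, Npas4, Nr4a3 and Jun lie below all WT points, those of Junb and Egr1 lie mostly above, and at day 10 the groups overlap for all 10 genes.

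At day 20 all 10 genes differed between dKO and WT over both sexes, 8 lower and 2 higher in dKO. The falls were greatest for Nr4a3, Npas4 and Arc, at 25.1%, 37.96% and 40.7% of the WT mean. Homer1 and Jun stood near 73% of WT with little spread, and Junb and Egr1 were the 2 genes that rose. Calls were made at an adjusted p under 0.05 in edgeR's quasi-likelihood test with Benjamini-Hochberg adjustment over 21657 genes, and 38.8% of those genes were called (19.5% lower, 19.4% higher). For 5 of the 10 genes all dKO libraries were below all WT libraries, which held for 10.3% of all genes. The median log2 change of the 10 genes was -0.60, and that of all genes tested was -0.00. Because the 10 were chosen with earlier results of these data known, their excess over all genes is not an independent test. In tissue, fewer cells of a type and less RNA per cell cannot be told apart.

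Of the synaptic products, Arc (ENSMUSG00000022602, chromosome 15, 74669083 to 74672570, minus strand, GRCm38) encodes a protein that drives internalisation of AMPA receptors. Its level at day 20 had a lowest value of 5.66, a median of 9.78 and a highest value of 12.5 CPM in dKO, against 20.5, 23.2 and 27.3 CPM in WT. All 6 dKO libraries lay below all 6 WT libraries, with a log2 change of -1.34 ± 0.11 (SE, adjusted p = 4.74e-09). Homer1 (chromosome 13, 93299635 to 93405129, plus strand) encodes a scaffold that ties group I metabotropic glutamate receptors to the postsynaptic density, and a short activity-induced form that competes with it. The gene-level counts sum all forms. Homer1 was at 71.9, 77.5 and 86.6 CPM (lowest, median, highest) in dKO against 98.3, 107.3 and 114.5 CPM in WT. The groups did not overlap, and the log2 change was -0.46 ± 0.05 (adjusted p = 7.99e-07).

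Npas4 (chromosome 19, 4984355 to 4990316, minus strand) encodes a transcription factor found almost wholly in neurons and induced by calcium entry. It was at 1.40, 1.76 and 2.68 CPM in dKO against 4.08, 5.01 and 5.78 CPM in WT, again without overlap (log2 change -1.38 ± 0.20, adjusted p = 1.62e-05). Nr4a3 (chromosome 4, 48045153 to 48086447, plus strand) and Nr4a1 (chromosome 15, 101254269 to 101274795, plus strand) encode orphan nuclear receptors of the NR4A family. Nr4a3 fell to 6.26, 7.88 and 10.5 CPM in dKO, against 24.4, 32.5 and 35.9 CPM in WT. The highest dKO library was below the lowest WT library, and the log2 change of -2.004 ± 0.17 (95% interval -2.35 to -1.66) was the largest of the 10 (adjusted p = 3.36e-08). Nr4a1 was at 10.1, 11.97 and 21.6 CPM in dKO against 15.4, 19.5 and 22.95 CPM in WT. Of the dKO libraries 4 were below the lowest WT library and 2 lay among the WT values, female replicate 1 at 17.5 CPM and male replicate 1 at 21.6 CPM. The log2 change of Nr4a1 was -0.47 ± 0.17 (adjusted p = 0.0326), and its call was lost in 10 of 19 alternatives. Adjusted p was 0.0721 with no filter on low counts and 0.0871 with a fit of the day 20 groups alone, and it was 0.0509 to 0.0876 without any 1 of 8 libraries (replicates 2 and 3 of the dKO females, dKO males and WT females, and replicates 1 and 3 of the WT males).

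Fos, Fosb, Jun and Junb encode subunits of the AP-1 transcription factor, in which a Fos protein pairs with a Jun protein. Fos (chromosome 12, 85473890 to 85477273, plus strand) was at 12.8, 16.4 and 24.4 CPM in dKO against 23.9, 29.4 and 34.0 CPM in WT. All dKO libraries but male replicate 1, the highest, lay below the WT libraries, and the log2 change was -0.72 ± 0.17 (adjusted p = 0.00221). Fosb (chromosome 7, 19302696 to 19310051, minus strand), the least abundant, was at 0.592, 0.843 and 1.15 CPM in dKO against 1.12, 1.65 and 2.26 CPM in WT, from 115 counts in 6 dKO libraries and 261 in 6 WT libraries. Again 5 of 6 dKO libraries were below the lowest WT library (log2 change -0.92 ± 0.26, adjusted p = 0.0068). Jun (chromosome 4, 95049034 to 95052222, minus strand) was at 29.0, 32.5 and 34.9 CPM in dKO against 41.4, 44.3 and 47.5 CPM in WT. Its groups did not overlap (log2 change -0.44 ± 0.06, adjusted p = 4.95e-06). Junb (chromosome 8, 84974484 to 84978718, minus strand), which can restrain the activity of Jun, was at 7.31, 8.94 and 10.5 CPM in dKO against 5.70, 6.33 and 7.48 CPM in WT. The lowest dKO library lay below the highest WT library and the other 5 above it (log2 change 0.48 ± 0.11, adjusted p = 0.00203). The Jun locus overlaps the antisense gene Junos and the Junb locus overlaps Prdx2 on the opposite strand; the counts are specific to the strand.

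Egr1 (chromosome 18, 34859823 to 34864984, plus strand) encodes a zinc finger transcription factor induced by growth factors and synaptic activity. It was at 21.1, 25.5 and 26.7 CPM in dKO against 18.3, 19.3 and 21.7 CPM in WT. Of the 6 dKO libraries 5 exceeded every WT library, and the log2 change was 0.33 ± 0.10 (adjusted p = 0.00882). Unlike Nr4a1, the other 9 genes kept their call and direction at day 20 in all alternatives that gave a value.

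**Figure D2:**
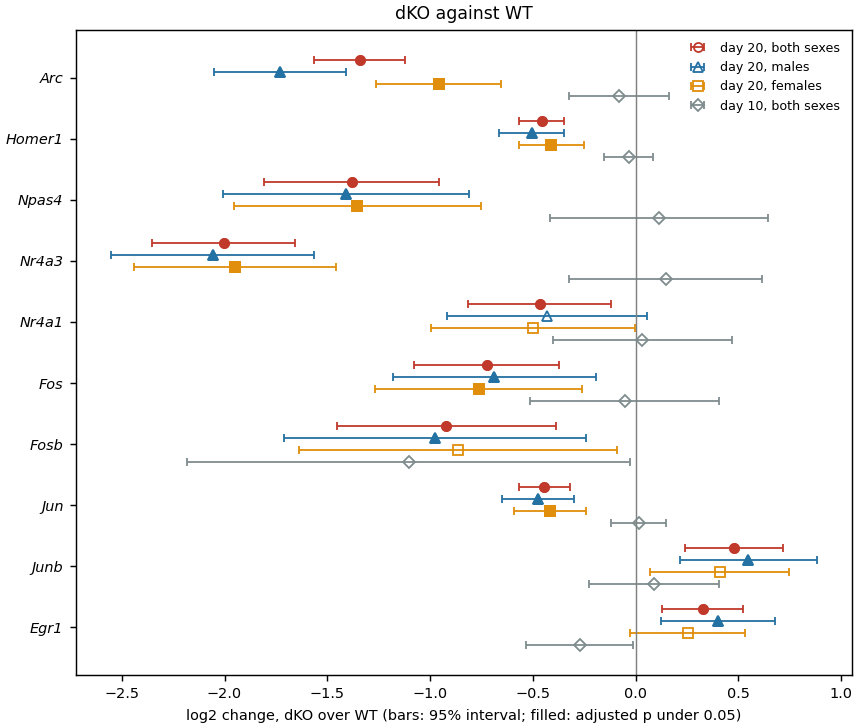
Log2 change of each gene, dKO over WT (horizontal axis), with 95% intervals as bars, for both sexes, males and females at day 20 and for both sexes at day 10; filled marks have an adjusted p under 0.05. At day 20 the 3 estimates of a gene lie on the same side of 0 for all 10 genes, from -2.004 (Nr4a3) to 0.48 (Junb) over both sexes, and no day 10 mark is filled.

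In each sex at day 20 the pattern of directions was the same, 8 genes below 0 and 2 above. In females 6 genes were lower (Arc, Fos, Jun, Nr4a3, Npas4 and Homer1), where 5.37% of all genes were lower, and none was called higher. In males those 6 and Fosb were lower, where 17.5% of all genes were lower, and Junb and Egr1 were higher, where 17.8% were higher. Nr4a3 changed by -2.06 ± 0.24 in males (adjusted p = 2.24e-06 in edgeR) and by -1.95 ± 0.23 in females (adjusted p = 3.54e-05) on the log2 scale. With 3 libraries a group some adjusted p-values lay close to 0.05, and calls were lost while the direction stayed. Fos in females (log2 change -0.76, adjusted p = 0.0492 in edgeR) lost its call in 8 of 13 alternatives. It was at -0.86 to -0.64 with adjusted p = 0.0721 to 0.164 without any 1 of dKO replicates 2 and 3 and WT replicates 1, 2 and 3, and had adjusted p = 0.0532 with RLE scaling, adjusted p = 0.122 with no filter and adjusted p = 0.0559 with unstranded counts. In males Fos (log2 change -0.69) lost its call in 5 of 13 alternatives, at -0.70 to -0.50 with adjusted p = 0.0604 to 0.141 without dKO replicate 2 or 3 or WT replicate 1 or 3, and with adjusted p = 0.0586 with no filter. Fosb in males (-0.98) lost it in 5 of 12, at -0.89 to -0.75 with adjusted p = 0.113 to 0.156 without dKO replicate 1 or 2 or WT replicate 3, and with adjusted p = 0.0979 in DESeq2 and adjusted p = 0.066 in limma-voom. Egr1 in males (0.40) lost it in 4 of 13 (0.36 to 0.40, adjusted p = 0.0572 to 0.08 without dKO or WT replicate 1 or 2) and Junb (0.55) in 2 of 13 (0.47 and 0.45, adjusted p = 0.0588 and adjusted p = 0.0692 without dKO or WT replicate 1). Nr4a1 in males was called only without dKO replicate 1, its highest library (log2 change -0.79, adjusted p = 0.0119).

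The sexes stood furthest apart in Arc. Arc was at 5.66, 7.97 and 7.30 CPM in dKO males against 22.1, 27.3 and 20.5 CPM in WT males, and at 12.5, 12.1 and 11.6 CPM in dKO females against 24.1, 23.8 and 22.6 CPM in WT females. All 3 dKO males were below all 3 dKO females, while the WT sexes overlapped. The log2 change was -1.73 ± 0.16 in males and -0.96 ± 0.15 in females. The difference between them, males minus females, was -0.77 ± 0.21 with an adjusted p = 0.102 in edgeR, which called 0 of the 10 genes and 0% of all genes for this interaction. At an unadjusted p under 0.05, Arc alone of the 10 and 3284 of all genes (15.2%) passed. DESeq2 called Arc (adjusted p = 0.0415) among 347 genes, a fit of the day 20 groups alone called it (adjusted p = 0.014) among 1091, and limma-voom called 0 genes. Summed markers of 4 cell types were likewise lower in all 3 dKO males than in all 3 dKO females. Microglia markers summed to 102.4 to 119.2 CPM in dKO males and 136.8 to 155.7 CPM in dKO females, and pan-neuronal markers to 4489 to 4896 CPM and 4960 to 5296 CPM. Oligodendrocyte markers summed to 11690 to 13180 CPM in dKO males and 14180 to 14890 CPM in dKO females, and astrocyte markers to 4649 to 5061 CPM and 5070 to 5289 CPM. The part of these shifts in the Arc difference was not tested.

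At day 10 none of the 10 genes differed detectably between dKO and WT. Over both sexes 0 of 10 were called in edgeR, against 5.79% of all genes, and DESeq2 and limma-voom called 0 as well. Of the 10, Fosb and Egr1 had an unadjusted p under 0.05, as had 25.2% of all genes. The median log2 change of the 10 was -0.01. Arc was at 9.14, 11.4 and 13.9 CPM in dKO (n = 5) against 10.3, 11.6 and 15.5 CPM in WT (n = 6), and Nr4a3 at 3.06, 5.06 and 8.63 CPM against 3.66, 4.67 and 6.15 CPM. For both genes the dKO values ran through the WT range. The log2 change of Arc was -0.08 (95% interval -0.33 to 0.16) and that of Nr4a3 0.15 (-0.32 to 0.62). Fosb was at 0.0854, 0.223 and 0.435 CPM in dKO against 0.158, 0.618 and 1.22 CPM in WT, but rested on 20 counts in 5 dKO and 92 in 6 WT libraries (log2 change -1.10 ± 0.52, adjusted p = 0.186 in edgeR).

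Egr1 at day 10 was at 7.90 and 7.81 CPM in dKO males against 6.47, 7.86 and 8.15 CPM in WT males, and at 8.21, 4.61 and 4.27 CPM in dKO females against 9.76, 8.64 and 8.56 CPM in WT females. The dKO females were all below the WT females, and the male groups overlapped. In females the log2 change was -0.65 ± 0.17 with an adjusted p = 0.0635 in edgeR, which called 0 of 10 genes in females, against 0.591% of all genes, with 2 of 10 at an unadjusted p under 0.05, against 18.4% of all genes. DESeq2 called Egr1 (adjusted p = 0.00728), limma-voom called 0, and edgeR called it without dKO female replicate 1 (log2 change -1.03, adjusted p = 0.00136 in females; -0.46 and adjusted p = 0.0114 over both sexes). In males 0 of 10 genes were called, against 0.0139% of all genes, by edgeR, DESeq2 or limma-voom, and 0 had an unadjusted p under 0.05, against 19.5% of all genes. The sexes' differences were compared at day 10 as well. In edgeR 0 of 10 genes and 0% of all genes were called for that interaction, 1 gene (Egr1, 0.75 ± 0.25, males minus females, adjusted p = 0.314) and 2599 of all genes (12%) had an unadjusted p under 0.05, and DESeq2 and limma-voom called 0. Without the 3 libraries that stood apart, which leaves 1 dKO male library, Arc changed by -0.16 and Nr4a3 by -0.05 over both sexes (log2). Egr1 in females then changed by -0.58 on the log2 scale.

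Between day 10 and day 20 all 10 genes rose in WT, and only some of them did in dKO. In WT 10 of 10 were higher at day 20, where 26.1% of all genes were higher, and for 9 of them all 6 day 20 libraries exceeded all 6 day 10 libraries (Fosb overlapped), which held for 15.6% of all genes. In dKO 6 of 10 were higher (Fos, Fosb, Junb, Egr1, Nr4a1 and Nr4a3), where 30.3% of all genes were higher, and 3 were lower (Arc, Jun and Homer1), where 31.2% were lower. Npas4 did not pass the test in dKO. Nr4a3 had the greatest rise in WT, with a log2 change of 2.78 ± 0.18, and changed by 0.63 ± 0.21 in dKO (adjusted p = 0.0162 in edgeR). Arc changed by -0.34 ± 0.12 in dKO (adjusted p = 0.0197) and by 0.92 ± 0.10 in WT (adjusted p = 1.09e-07). Npas4 changed by -0.17 ± 0.27 in dKO (adjusted p = 0.589) and by 1.32 ± 0.20 in WT (adjusted p = 6.73e-06). Without the 3 day 10 libraries that stood apart 10 genes were called in WT and 9 in dKO, with Nr4a3 at 0.80 in dKO and 2.76 in WT, Arc at -0.34 and 0.83, and Npas4 at 0.06 (adjusted p = 0.872 in edgeR) and 1.06.

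The AP-1 genes and Egr1 kept a rise in both genotypes, with the exception of Jun. Fos changed by 1.20 in dKO and 1.87 in WT on the log2 scale, Fosb by 1.92 and 1.74, Junb by 1.22 and 0.83, and Egr1 by 1.88 and 1.28. Jun changed by -0.19 in dKO and 0.27 in WT, Homer1 by -0.14 and 0.28, and Nr4a1 by 0.84 and 1.34. In dKO the fall of Homer1 was lost in 9 of 20 alternatives, with a log2 change of -0.14 to -0.06 and adjusted p = 0.0598 to 0.394 without any 1 of 6 dKO libraries (female replicate 2 and male replicate 1 of day 10, and replicates 1 and 2 of each sex of day 20), adjusted p = 0.0532 in DESeq2, adjusted p = 0.1 with no filter and adjusted p = 0.0892 in a fit of the dKO groups alone. That of Arc was lost without day 10 female replicate 1, day 10 male replicate 2 or day 20 male replicate 1 (adjusted p = 0.0601 to 0.064). Without day 10 male replicate 1 Homer1 changed by -0.06 (adjusted p = 0.394), and Jun lost its call at -0.10 (adjusted p = 0.232), and the call of the rise of Nr4a3 was lost without day 10 male replicate 2 (adjusted p = 0.0536) or day 20 male replicate 1 (adjusted p = 0.0518).

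**Figure D3:**
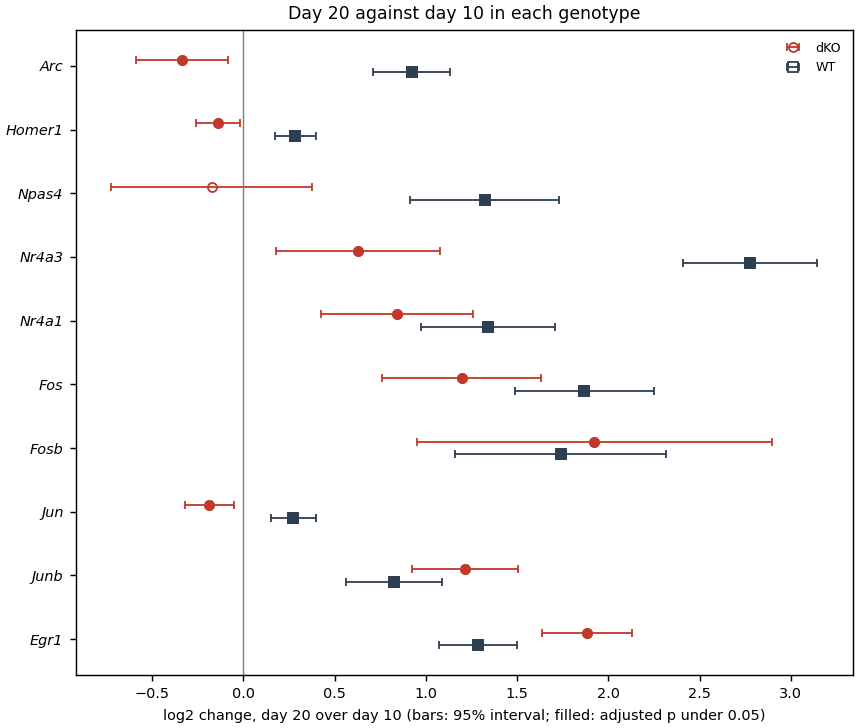
Log2 change of each gene, day 20 over day 10 (horizontal axis), in dKO and WT, with 95% intervals as bars; filled marks have an adjusted p under 0.05. In WT all 10 marks lie above 0, from 0.27 (Jun) to 2.78 (Nr4a3), and in dKO Arc, Jun, Homer1 and Npas4 lie below 0.

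The difference between the day 20 and day 10 genotype effects was tested directly. It was negative and called for 5 genes, where 14.9% of all genes were lower, and positive and called for Egr1, where 13.8% were higher. Nr4a3 had an interaction of -2.15 ± 0.28 (adjusted p = 2.9e-05), Npas4 of -1.50 ± 0.33 (adjusted p = 0.00217) and Arc of -1.26 ± 0.16 (adjusted p = 8.79e-06). Those of Jun and Homer1 were smaller, -0.46 ± 0.09 (adjusted p = 0.000588) and -0.42 ± 0.08 (adjusted p = 0.000437). Egr1 had 0.60 ± 0.16 (adjusted p = 0.00711). The 4 genes that were not called had values of -0.67 (Fos, adjusted p = 0.0769), -0.50 (Nr4a1, adjusted p = 0.17), 0.39 (Junb, adjusted p = 0.133) and 0.18 (Fosb, adjusted p = 0.845). Without the 3 day 10 libraries that stood apart the same count of 6 was called, with Nr4a3 at -1.96, Npas4 at -0.9996 (adjusted p = 0.033) and Arc at -1.17. Fos was called in DESeq2 (adjusted p = 0.0415) and without day 20 dKO female replicate 1 (adjusted p = 0.0276) or male replicate 1 (adjusted p = 0.0406), and Nr4a1 without that male library (adjusted p = 0.0325). The genotype and age comparisons share libraries, so they are not independent of each other.

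Within groups the genes varied to different degrees and did not all move together. Each gene's log2 CPM was taken as a deviation from the mean of its genotype, sex and day, over 23 libraries that share depth and tissue block with all genes. The SD of these deviations was 0.0772 for Homer1 and 0.0858 for Jun, against 0.28 for Fos, 0.30 for Nr4a3, 0.36 for Npas4 and 0.49 for Fosb. These SDs include counting error, which is larger at few counts, and its part was not tested. In dKO at day 20 Homer1 had 10155 counts and Jun 4261, against 2319 for Fos, 1046 for Nr4a3, 249 for Npas4 and 115 for Fosb. Fos and Nr4a1 were closest, with Pearson's r of 0.83 and Spearman's rho of 0.84, and r of 0.77 without the 2 libraries farthest from the median of Fos. Fosb and Egr1 followed at r = 0.72. Correlation with the mean of the other 9 genes was highest for Fos (0.72), Fosb (0.68), Nr4a1 (0.68), Egr1 (0.60) and Junb (0.55), lower for Npas4 (0.40) and Nr4a3 (0.29), and below 0 for Homer1 (-0.04), Arc (-0.11) and Jun (-0.25). Arc and Nr4a3, which fell together between genotypes, had r = -0.48 within groups. The 2 day 20 dKO libraries with the highest Fos, male replicate 1 at 24.4 CPM and female replicate 1 at 21.5 CPM, were also the 2 highest in Nr4a1 and in Nr4a3.

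**Figure D4:**
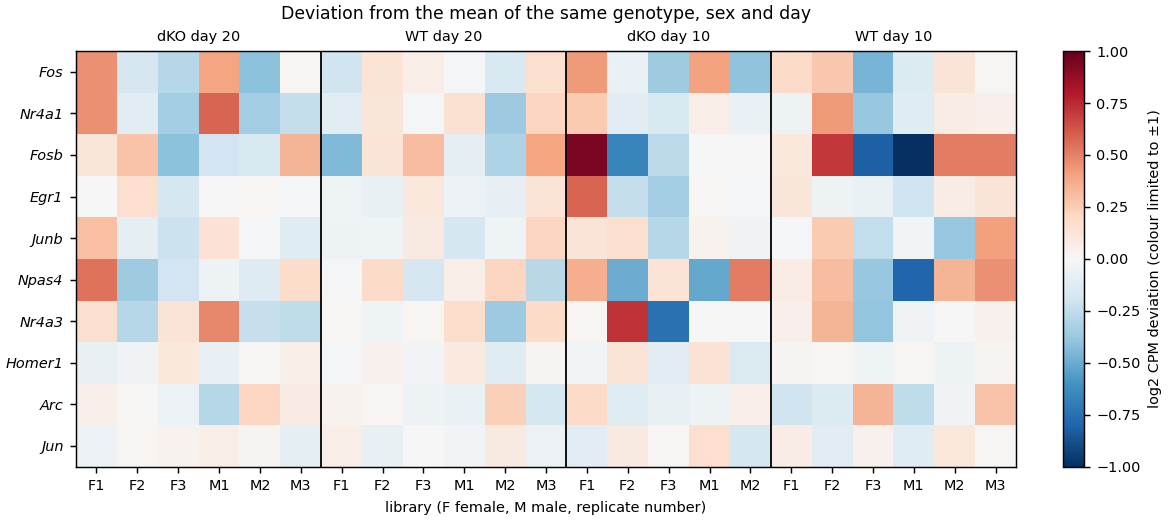
Deviation of each gene's log2 CPM from the mean of libraries of the same genotype, sex and day (colour, limited to 1 in each direction), for 23 libraries on the horizontal axis grouped by genotype and day, with genes ordered roughly by correlation with the other 9. The rows of Fos and Nr4a1 look most alike (r = 0.83), and those of Homer1 and Jun are the palest.

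The genes whose deviations were most like the mean deviation of the 10, among 13941 protein-coding genes averaging 1 CPM or more, were Hba-a1 (r = 0.75 over 23 libraries), Ddx6 (0.73), Zfp947 (0.73), Zranb3 (0.72), Hbb-bt (0.72), Zbtb33 (0.72), Rpp25l (0.70) and Gimap6 (0.70). These were picked as the highest of 13941 correlations, over deviations from 8 group means. How high such a search reaches among unrelated genes was not tested. The mean gives the 10 genes equal weight, so those of large SD, such as Fosb, move it most. Hba-a1 and Hbb-bt encode globin chains of red blood cells. Both also differed between genotypes at day 20. Hba-a1 was at 12.02 to 25.7 CPM in dKO against 61.6 to 129.1 CPM in WT (log2 change -2.51 ± 0.34, adjusted p = 2.65e-05 in edgeR), and Hbb-bt at 3.34 to 6.76 CPM against 30.0 to 63.6 CPM (-3.42 ± 0.40, adjusted p = 6.5e-06). The groups did not overlap for either globin, and the part of these genes in the results on immediate early genes was not tested. At day 10 Hba-a1 was at 43.1 to 90.7 CPM in dKO and 44.5 to 150.1 CPM in WT.

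The other genes of the activity response did not share a direction at day 20. Of 39 other immediate early genes tested, 12 were higher and 7 lower in dKO, with a median log2 change of 0.03. Among all genes 19.4% were higher and 19.5% lower. Per1, a clock gene that also responds to activity and to glucocorticoids, was at 109.0 to 212.9 CPM in dKO against 63.5 to 84.3 CPM in WT (log2 change 0.96 ± 0.08, adjusted p = 1.98e-08 in edgeR). Ctgf and Cyr61, which encode secreted matricellular proteins, changed by 1.47 ± 0.13 and 1.40 ± 0.19, and Csrnp1, a nuclear protein gene, by 1.09 ± 0.12. Each of these 4 genes was higher in every dKO library than in every WT library of day 20, which held for 9.79% of all genes. The close relatives of the 10 genes, named after their values were seen, were split. Fosl2, an AP-1 subunit gene, changed by -0.47, Nr4a2 by -0.53 and Egr4 by -0.74, while Jund changed by 0.23 (adjusted p = 0.00249, adjusted p = 0.012, adjusted p = 0.00331 and adjusted p = 0.013 in edgeR). Egr2 (0.39) and Egr3 (-0.05) did not pass.

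Of 14 late activity-response genes, which immediate early factors help to control, 2 were higher and 5 lower in dKO at day 20. Their median was -0.14, and among all genes 19.4% were higher and 19.5% lower. Bdnf, a neurotrophin gene, was at 6.88 to 14.7 CPM in dKO against 19.4 to 22.1 CPM in WT (log2 change -0.86 ± 0.16, adjusted p = 0.00033 in edgeR). Pcsk1, encoding a prohormone convertase, changed by -0.68 ± 0.12, Nrn1, encoding neuritin, by -0.49 ± 0.08, and Spry2, an inhibitor of growth factor signalling, by -0.28 ± 0.06. Of 29 genes for upstream factors, kinases and channels, 6 were higher and 1 lower, against the same shares of all genes. Their median was 0.04. Creb1, which encodes CREB, was at 69.8 to 92.1 CPM in dKO against 109.3 to 127.5 CPM in WT (-0.54 ± 0.08, adjusted p = 3.41e-05 in edgeR), without overlap. Crtc1, a coactivator of CREB, changed by 0.44 ± 0.06, Grin1, the obligatory NMDA receptor subunit, by 0.26 ± 0.04, and Crebbp, the CREB-binding acetyltransferase, by 0.18 ± 0.05. Of 7 partners and paralogs of Homer1, only Homer2 was called (0.35 ± 0.10, adjusted p = 0.0113 in edgeR), where 38.8% of all genes were called. At day 10, 5.79% of all genes were called. Those in these 4 lists were Plk2 (0.40), Nptx2 (0.61), Scg2 (0.34) and Grm5 (0.47), higher in dKO, and Mef2d (-0.27), lower. These genes were named after their values were seen. Without the 3 day 10 libraries that stood apart none of these 5 was called in edgeR, with log2 changes of 0.19, 0.09, 0.20, 0.15 and -0.17 and adjusted p = 0.67 to 0.928. Each also lost its call without dKO male replicate 2 alone and without WT male replicate 1 alone.

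**Figure D5:**
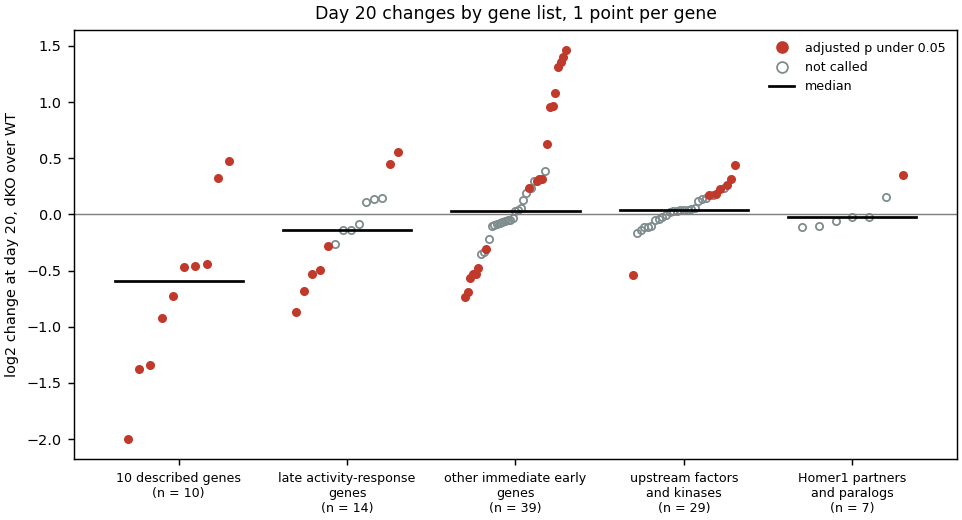
Log2 change at day 20, dKO over WT (vertical axis), of each tested gene, 1 point per gene, for the 10 described genes and 4 other lists; filled points have an adjusted p under 0.05 and lines are medians. The median lies at -0.60 for the 10 genes, at -0.14 for late activity-response genes and at 0.03, 0.04 and -0.02 for the other 3 lists.

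Marker genes of some cell types differed with genotype at day 20 as well, most often those of endothelial cells and microglia. Among all genes 19.4% were higher and 19.5% lower. Of 10 pan-neuronal markers 3 were lower and 0 higher in dKO, and they summed to 4489 to 5296 CPM against 5187 to 5523 CPM in WT. Of the cerebellar, Hox and tested forebrain excitatory markers (10, 10 and 9 genes) 0 were called in edgeR. Of 8 striatal markers 2 were higher and 2 lower. Endothelial markers were lower for 8 of 10 genes, summing to 236.6 to 295.5 CPM in dKO against 329.6 to 346 CPM in WT, and microglia markers for 8 of 10, summing to 102.4 to 155.7 CPM against 174.9 to 209.1 CPM. Oligodendrocyte markers were lower for 3 of 8 genes, summing to 11690 to 14890 CPM in dKO against 15220 to 19840 CPM in WT, again without overlap. Of 8 astrocyte markers 2 were higher and 2 lower, summing to 4649 to 5289 CPM against 5060 to 5371 CPM. Emx1 was at 0 in 5 of 6 dKO libraries and 2 of 6 WT libraries of day 20. The part of these shifts in the levels of the immediate early genes was not tested.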

How the data were processed

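For every library the authors deposited raw gene counts. The submitters' processing notes name STAR 2.5.2b, HTSeq and the build GRCm38.p5; they give no role for either tool, no HTSeq version and no annotation. Libraries were TruSeq Stranded mRNA per the labels' protocols. Reverse-strand counts (column 4) were taken, because forward-strand counts came to 5.22 to 7.46% of them. The 4 entries that name no gene, 58.3 to 62.5% of reads, stayed out of library sizes. GENCODE M21 on GRCm38 named 50462 of 50686 genes.

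Tests used edgeR 4.0.16 (R 4.3.3). The 21657 genes past filterByExpr were scaled by TMM and fitted with 1 mean for each of 8 groups over the 23 libraries with at least 1 M gene counts (glmQLFit, robust; glmQLFTest, two-sided), with Benjamini-Hochberg adjustment over all genes tested. All groups share 1 estimate of spread. CPM use TMM factors, and log2 CPM a prior count of 2. No library copied another (highest correlation of log2 CPM 0.993). The fit was tested on simulated data. Intervals cover counting and replicate error as the fit estimates them, and limits from depth cover counting error only.

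Each comparison of the 10 genes, and the calls of the other lists at either day, were recomputed with RLE size factors, without a filter, with a filter at a mean of 1 CPM, with unstranded counts (column 2), in DESeq2 1.42.0 and limma-voom (limma 3.58.1), over all 24 libraries (comparisons with day 10), over the compared groups alone and without each replicate in turn; leaving out together the 3 day 10 libraries that stand apart was chosen after seeing the data. Named genes outside the 10 are up to 4 called genes of each list with the smallest p at day 20 and the 8 genes most like the 10 within groups; close relatives of the 10 at day 20 and the called list genes at day 10 were named after their values were seen. The 10 genes and the lists were chosen with earlier results of these data known.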

Additional observations from a re-analysis of the deposited data

Results flagged for a closer look

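In WT at day 10, Nr4a1 was at 11.03 CPM in female replicate 2 while the other 5 libraries lay between 6.26 and 7.90 CPM. This was the only 1 of 40 gene, genotype and day groups with a sample that far from the rest, and chance gives about 1 in 20. The genotype effect differed between the days by a test of the difference for 6 genes, with log2 interactions (day 20 effect minus day 10 effect) of -1.261 for Arc, -0.4597 for Jun, 0.5981 for Egr1, -2.15 for Nr4a3, -1.495 for Npas4 and -0.4234 for Homer1. In the library labelled dKO male day 10 replicate 3, which entered only the alternative over all 24 libraries, Fos had 3 counts of 45964 gene counts. That is 65.3 CPM with an exact Poisson interval of 13.5 to 190.7 CPM, above the highest WT library of day 10 at 12.03 CPM, and the interval covers counting error only. The other 9 genes had 0 to 4 counts there.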

How the results depend on the processing

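Under 9 other settings and with each of 23 libraries left out, no called value of the 10 genes turned its direction. At day 20 the genes of the 10 called numbered 9 to 10 of 10 over both sexes, 5 to 6 in females and 6 to 8 in males when replicates were left out, against 10, 6 and 9 with all. The interaction of genotype and day gave 6 to 8 against 6, age in WT 10 to 10 and age in dKO 6 to 9 against 9. At day 10, 0 to 1 of the 10 were called with a replicate left out, over both sexes and in females, and DESeq2 called 1 in females. For the sex interaction at day 20 DESeq2 and a fit of only the groups compared called 1 each. The count over all genes at day 10 depended on single libraries. It was 1254 with all libraries, 608 with no filter, 2105 in DESeq2, 6 with only the groups compared and 10 without the 3 libraries that stood apart, and 16 (without dKO male replicate 2) to 4648 (without dKO male replicate 1) when replicates were left out; the cause was not tested. At day 20 that count was 8412, and 7312 to 7879 with a replicate left out. RLE scaling moved the median of all genes by 0.00 to 0.01 on the log2 scale. Fosb fell under the stricter filter and has no value there. Fosb at day 10, at 20 counts in dKO, is limited by depth. No paired analysis was possible because the labels give no replicate numbers, and those used were given in accession order.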
